A study of Caenorhabditis elegans with 6 samples.

Results

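The lysosomal acid lipase genes lipl-1 to lipl-7 of *Caenorhabditis elegans* were read out by 11 of the 22490 gene probes on the arrays, or 7 of 18865 genes. A probe was taken as a member where its sequence name in the scanner files, without the isoform letter, belonged to one of these genes. The sequence names are F54F3.3 for lipl-1, F46B6.8 for lipl-2, R11G11.14 for lipl-3, K04A8.5 for lipl-4, ZK6.7 for lipl-5, Y57E12B.3 for lipl-6 and F01G10.7 for lipl-7. All lie on chromosome V except lipl-7, which lies on chromosome IV. lipl-1 and lipl-6 had 2 probes each, lipl-5 had 3 and every other member had 1.

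These genes encode acid lipases that act in the lysosome, where they cut stored fat and membrane lipid into free fatty acids. The breakdown of lipid droplets in the lysosome, called lipophagy, is a main way by which a fasting nematode draws on the fat of its intestine, the tissue that serves as gut, liver and fat store at once. Several lipl genes are switched on by fasting, through the transcription factor HLH-30, the nematode relative of mammalian TFEB, and are held down in fed animals by MXL-3. LIPL-4 is best known from long-lived animals, in which it produces lipid signals that the carrier LBP-8 takes to nuclear receptors.

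On each of 6 dual-channel arrays, RNA of nematodes kept on agar with chlorpyrifos (CPF) at 0.5 mg/l was hybridised against RNA of control nematodes kept on agar with the solvent acetone alone. CPF is an insecticide that blocks acetylcholinesterase. On 3 arrays the CPF sample carried the dye Cy5 (written CPF in Cy5) and on the other 3 it carried Cy3 (CPF in Cy3). Both groups were whole animals of the wild-type strain N2 fed on *Escherichia coli* OP50. The labels give 72 h of age at 24 °C and larval stage L3 to L4, whereas the methods give a shorter time, and the files do not settle which applies. The methods describe the replicates as independent biological samples, and the labels describe several dishes of synchronised eggs per treatment.

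All signed values follow the scanner files, as log2 of the channel labelled CPF over the channel labelled control. In the deposited table of log2 ratios each of the 6 columns matched the same-numbered array of the opposite orientation, with the sign turned, so by that table's own labels every sign below would be reversed. The methods do not settle which labels hold. Between 38.7% and 56.1% of gene probes were above local background in CPF channels, against 35.2% to 53.4% in control channels, and 0 of 618 empty spots passed the filter for testing. To pass, a spot had to exceed its local background by 2 SDs of that background in 6 or more of the 12 channels, and 9947 genes did so. CPF in Cy3 replicate 1 stood apart, with an SD of log2 ratios of 0.900, against 0.424 to 0.468 on the other arrays. Ratios correlated across probes between arrays at 0.283 to 0.681 within an orientation and at 0.017 to 0.504 across orientations. Precision is limited by how few arrays there are.

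The members that passed the filter were 6 genes with 8 probes. Of these 6 genes, lipl-1 and lipl-2 were called lower in the channel labelled CPF and 0 were called higher, against 2.34% of all tested genes called lower and 0.965% called higher (limma, Benjamini-Hochberg adjusted p under 0.05 over 11033 probes, of which 386, or 3.50%, were called in either direction). lipl-1 was 2.75-fold and lipl-2 2.37-fold lower. The other 4 tested genes had log2 ratios between 0.20 and 0.38, all above 0 and none past the threshold. The median of the 6 fitted log2 ratios was 0.24, against 0.01 over all genes tested, while the family's median within single arrays ran from -0.27 to 0.21.

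**Figure D1:**
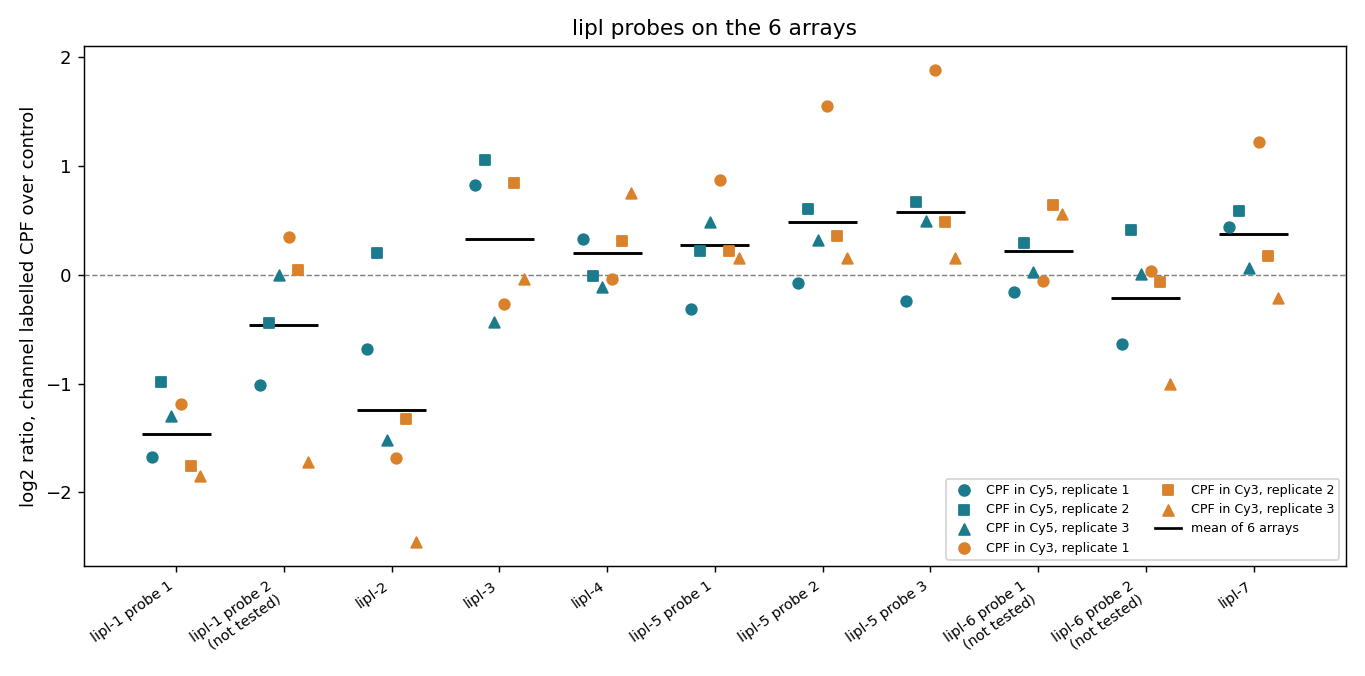
Log2 ratio of the channel labelled CPF over control for each of the 11 lipl probes (vertical axis, log2 scale), with a point for each of the 6 arrays, coloured by dye orientation, and a bar at the mean. The 6 points of the tested lipl-1 probe lie between -1.85 and -0.99, and those of lipl-2 between -2.46 and 0.20, while the probes of lipl-3, lipl-4, lipl-5 and lipl-7 scatter around or above 0.

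lipl-1, one of the fasting-induced members, was tested with 1 of its 2 probes. Its normalised log2 level in the channel labelled CPF was 8.40, 9.44 and 7.72 on the CPF in Cy5 arrays and 7.49, 9.06 and 7.21 on the CPF in Cy3 arrays. In the control channel it was 10.08, 10.43 and 9.02 on the CPF in Cy5 arrays and 8.68, 10.82 and 9.06 on the CPF in Cy3 arrays. Within every array the CPF channel was the lower, although the levels of the groups overlapped across arrays. The log2 ratios were -1.68, -0.99 and -1.30 with CPF in Cy5 and -1.19, -1.76 and -1.85 with CPF in Cy3. The levels averaged 8.22 ± 0.90 in CPF channels and 9.68 ± 0.87 in control channels (SD, n = 6 arrays).

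The fitted log2 ratio of lipl-1 was -1.46 ± 0.13 (moderated SE, 95% interval -1.77 to -1.15, adjusted p = 0.00152), at rank 25 of 11033 probes by p. It was lower on 6 of 6 arrays, as were 8.58% of tested genes, and the exact sign-flip permutation test of this probe alone gave the smallest 2-sided p that 6 arrays allow, 0.03125. The mean ratio was -1.32 with CPF in Cy5 and -1.60 with CPF in Cy3, and the dye term was 0.14 (adjusted p = 0.725). The call held without each array in turn, with ratios between -1.56 and -1.37 and adjusted p between 9.97e-05 and 0.0181. With the CPF in Cy3 arrays alone the ratio did not pass (adjusted p = 0.109).

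The signal behind these ratios was modest. The raw median brightness of this lipl-1 spot was 463, 787, 249, 455, 579 and 258 in CPF channels and 1492, 792, 360, 480, 2327 and 947 in control channels, with the CPF in Cy5 arrays before the CPF in Cy3 arrays. All 6 control channels were above background, but only 4 of 6 CPF channels were, the exceptions being CPF in Cy5 replicate 3 and CPF in Cy3 replicate 3. On 2 arrays the raw values of both channels were close together. Before loess normalisation the log2 ratio was -0.12 on CPF in Cy5 replicate 2 and -0.03 on CPF in Cy3 replicate 1, where the median log2 ratio of all tested probes was 0.754 and 1.20. On the other 4 arrays it was between -2.08 and -1.11 before loess, so the ratio on those 2 arrays rests on the correction and on the others it does not.

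The second lipl-1 probe stayed out of the test, with 3 CPF channels and 2 control channels above background. Its log2 ratios were -1.02, -0.45 and 0.00 with CPF in Cy5 and 0.35, 0.04 and -1.72 with CPF in Cy3. The control channel was above background only on CPF in Cy5 replicate 1 and CPF in Cy3 replicate 3, a condition that by itself favours a low ratio of CPF over control. Over all 6 arrays the mean was -0.47 ± 0.78 (SD, exact permutation p = 0.25), and without the filter its adjusted p was 0.384. The pair of lipl-1 probes thus did not give the same ratio, and most spots of the untested one were not above background.

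lipl-2, a further acid lipase of the family, had levels of 10.49, 9.79 and 7.03 in CPF channels of the CPF in Cy5 arrays and 7.86, 9.36 and 8.46 in CPF channels of the CPF in Cy3 arrays. Its control channels stood at 11.17, 9.59 and 8.55 on the CPF in Cy5 arrays and at 9.54, 10.69 and 10.92 on the CPF in Cy3 arrays. The CPF channel was the lower on 5 of 6 arrays, the exception being CPF in Cy5 replicate 2, and the levels of the groups overlapped. The log2 ratios were -0.68, 0.20 and -1.51 with CPF in Cy5 and -1.68, -1.32 and -2.46 with CPF in Cy3. CPF channels were above background on 5 arrays, all but CPF in Cy5 replicate 3, and control channels on 6. Before loess the log2 ratio was 1.05 on CPF in Cy5 replicate 2 and -0.47 on CPF in Cy3 replicate 1. On the other arrays it was between -2.66 and -1.01 before loess.

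The fitted log2 ratio of lipl-2 was -1.24 ± 0.23 (moderated SE, 95% interval -1.76 to -0.73, adjusted p = 0.0328), at rank 168 by p, and the exact permutation p of this probe alone was 0.0625. The mean was -0.67 ± 0.86 with CPF in Cy5 and -1.82 ± 0.58 with CPF in Cy3 (SD, n = 3 arrays each), and the dye term of 0.58 did not pass (adjusted p = 0.491). Within an orientation the call was not reached, with adjusted p of 0.154 for CPF in Cy5 and 0.139 for CPF in Cy3. Leaving out CPF in Cy5 replicate 1 ended the call of lipl-2 at an adjusted p of 0.164, and leaving out CPF in Cy5 replicate 3 or CPF in Cy3 replicate 2 took it to 0.0892 or 0.0671, while the ratio stayed between -1.46 and -1.03 in all 6 such fits.

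**Figure D2:**
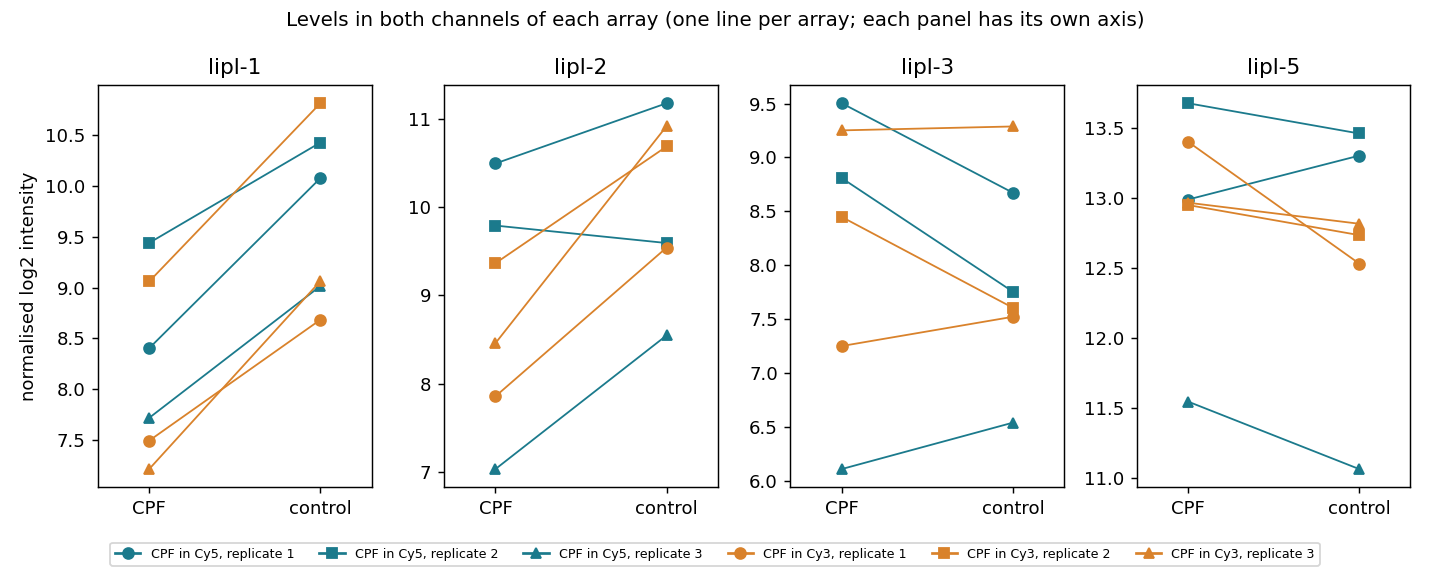
Normalised log2 intensity (vertical axis, a separate range in each panel) of the brightest tested probe of lipl-1, lipl-2, lipl-3 and lipl-5, with a line for each array from its CPF channel (left) to its control channel (right). All 6 lines go up towards control for lipl-1 and 5 of 6 for lipl-2, while 5 of 6 go down for lipl-5.

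**Figure D3:**
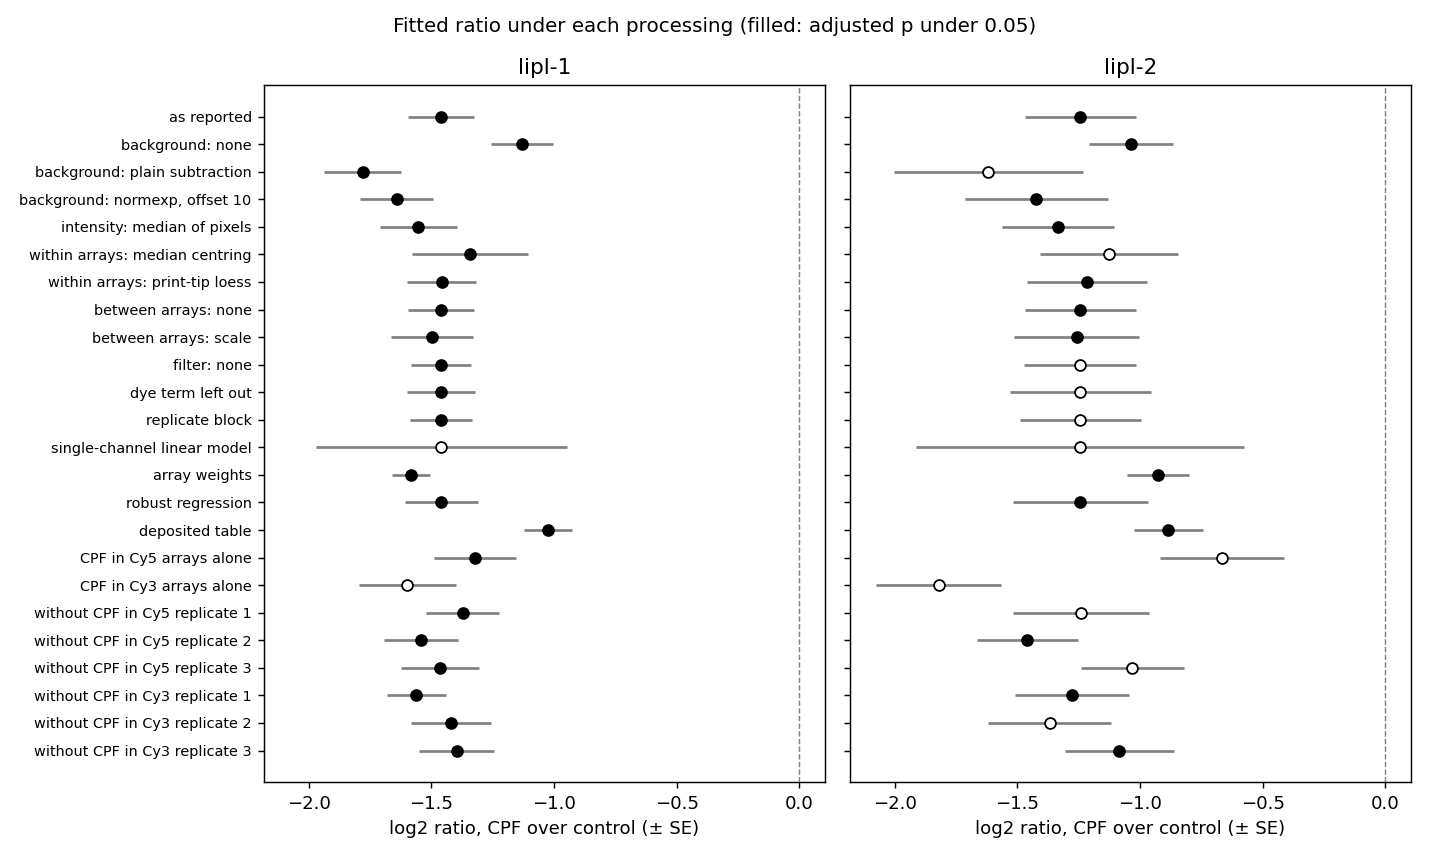
Fitted log2 ratio of CPF over control (horizontal axis, bars are ± SE) for lipl-1 and lipl-2 under each processing and with each array left out, with filled points where the adjusted p was under 0.05. Every point lies below 0, between -1.78 and -1.02 for lipl-1 and between -1.82 and -0.67 for lipl-2, and fewer points are filled for lipl-2. The deposited table was first matched to the scanner files in column and sign.

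lipl-5, another fasting-induced member, was the only tested member above background in all 12 channels, with each of its 3 probes. At the brightest of them the CPF channel stood at 12.99, 13.68, 11.55, 13.40, 12.95 and 12.97, with the CPF in Cy5 arrays before the CPF in Cy3 arrays. The control channel stood at 13.30, 13.46, 11.06, 12.53, 12.73 and 12.82 in the same order. After loess, CPF was the higher on every array except CPF in Cy5 replicate 1, where the ratio was -0.31. Before loess the ratio was also below 0 on CPF in Cy3 replicate 2 (-0.23) and CPF in Cy3 replicate 3 (-0.10). The dimmest array in both channels was CPF in Cy5 replicate 3. The fitted log2 ratio was 0.27 ± 0.15 (moderated SE, adjusted p = 0.256).

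The other lipl-5 probes also missed the threshold. The probe that the files name for isoform ZK6.7a had a ratio of 0.49 ± 0.19 (adjusted p = 0.149), and the other probe for ZK6.7b had 0.57 ± 0.23 (adjusted p = 0.154). After loess, each of the 3 probes was positive on 5 of 6 arrays and lowest on CPF in Cy5 replicate 1. All were highest on CPF in Cy3 replicate 1, the array with the widest ratios, where they reached 0.87, 1.55 and 1.89. None of the 3 was called in any fit with an array left out.

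lipl-3, which is induced by fasting and takes part in lipophagy, had log2 ratios of 0.83, 1.05 and -0.43 with CPF in Cy5 and -0.27, 0.84 and -0.04 with CPF in Cy3. They were positive on 3 arrays and negative on 3, and the fit gave 0.33 ± 0.22 (adjusted p = 0.337), with 5 CPF channels and 3 control channels above background. lipl-4, the lipase of the longevity signal, had ratios of 0.33, -0.01 and -0.11 with CPF in Cy5 and -0.04, 0.31 and 0.75 with CPF in Cy3. Its fit gave 0.20 ± 0.13 (adjusted p = 0.321), also with 3 arrays on each side of 0 and with 4 channels of each group above background. The 95% intervals, -0.17 to 0.83 for lipl-3 and -0.09 to 0.50 for lipl-4, did not reach down to the ratio of lipl-1.

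lipl-7, the member on chromosome IV, passed the filter with 4 CPF and 2 control channels above background. Its ratios were 0.44, 0.58 and 0.06 with CPF in Cy5 and 1.22, 0.17 and -0.21 with CPF in Cy3, positive on 5 of 6 arrays and again highest on CPF in Cy3 replicate 1. The fit gave 0.38 ± 0.18 (95% interval -0.04 to 0.80, adjusted p = 0.215). lipl-6 was not tested, since one of its probes was above background in 3 CPF channels and 1 control channel and the other in 0 of both. The mean ratios of these lipl-6 probes, 0.22 ± 0.33 and -0.21 ± 0.51 (SD, n = 6 arrays), are of spots near background. No spot of any member held saturated pixels.

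The members were set against each other within arrays through the log2 ratios of their brightest tested probes, in 15 pairs. lipl-1 lay below lipl-3, lipl-4, lipl-5 and lipl-7 on 6 of 6 arrays, by -1.79, -1.66, -1.73 and -1.84 on average. Each of these differences reached the smallest exact permutation p of 0.03125, which became 0.067 after adjustment over the 15 pairs. lipl-2 lay below lipl-3, lipl-5 and lipl-7 on 6 of 6 arrays by -1.57, -1.51 and -1.62, with the same exact p, and below lipl-4 on 5 arrays by -1.45 (exact permutation p = 0.0625, adjusted 0.117). With 6 arrays a pair at the smallest p does not pass a threshold of 0.05 here, since only 7 of the 15 pairs reached that p.

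lipl-1 and lipl-2 differed from each other by -0.22 ± 0.77 (SD, n = 6 arrays, exact permutation p = 0.531), with lipl-1 the lower on 3 arrays. Among lipl-3, lipl-4, lipl-5 and lipl-7 no pair differed by more than 0.17 on average, and the smallest exact permutation p was 0.594. The order of the fitted log2 ratios was thus lipl-1, lipl-2, lipl-4, lipl-5, lipl-3 and lipl-7 from low to high. No neighbours in this order differed past the threshold, and the widest step, between lipl-2 and lipl-4, had the same sign on 5 of 6 arrays.

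The genes whose ratios were closest to those of lipl-1 over the 6 arrays, by root mean square difference, were C50B6.7 (0.208), the saposin-like gene spp-18 (0.245), Y37H2A.11 (0.253), the short chain dehydrogenase gene dhs-2 (0.284) and F48G7.12 (0.300). For lipl-2 they were F53A9.8 (0.314), the C-type lectin gene clec-76 (0.345), Y105C5A.12 (0.400), T16G1.4 (0.400) and W02D7.8 (0.484). lipl-2 itself ranked 59 of 9947 genes in likeness to lipl-1, at 0.735. All points of a gene share the same 6 arrays, so these values describe the arrays and carry no test.

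The list of regulators of lipl genes held 16 genes. It also took in lbp-8, whose product acts after LIPL-4, and the nuclear receptor genes nhr-49 and nhr-80. Of the 16, 12 were tested, with nhr-80 but without lbp-8 and nhr-49. 0 were called in either direction, against 3.31% of all tested genes called. hlh-30, the activator, had a log2 ratio of -0.23 ± 0.10 (adjusted p = 0.197), negative on 6 of 6 arrays, from -0.46 to -0.01. mxl-3, the repressor, had -0.19, -0.19 and -0.06 with CPF in Cy5 and 1.13, 0.43 and 1.02 with CPF in Cy3, so that the 2 orientations lay on opposite sides of 0. The fit gave 0.36 ± 0.12 (adjusted p = 0.114) and a dye term of -0.50 (adjusted p = 0.476). mml-1, a Myc-like factor of the same network, had -0.35 ± 0.12 (adjusted p = 0.116). The list median was -0.24.

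Among genes of autophagy, the process that delivers lipid droplets to the lysosome, 20 of 27 listed were tested and 0 were called, against 3.31% of all tested genes. The 2 with the smallest p were epg-9, which acts at the start of autophagosome formation, at -0.60 ± 0.14 (adjusted p = 0.0568), and lgg-2, a relative of mammalian LC3, at -0.54 ± 0.14 (adjusted p = 0.0720). The fitted ratio was below 0 for 15 of 20, against 4884 of 9947 genes tested, and the list median was -0.16. Without CPF in Cy3 replicate 1, the array that stood apart, both epg-9 (adjusted p = 0.0251) and lgg-2 (adjusted p = 0.0313) were called lower. That fit called 806 of 11033 probes (7.31%), 388 of them lower, against 3.50% called with all arrays. The fit that left out CPF in Cy3 replicate 3 called 12% of all probes and 1 gene of this list, epg-9.

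Among other lysosomal genes, 5 of 24 tested were called lower and 0 higher, against 2.34% and 0.965% of all tested genes, with a list median of -0.20. The acid ceramidase gene asah-1 had levels of 10.37, 10.74, 11.27, 10.70, 10.79 and 10.56 in CPF channels and 12.04, 11.93, 12.77, 12.89, 12.15 and 11.90 in control channels, with the CPF in Cy5 arrays before the CPF in Cy3 arrays. The groups did not overlap in this gene, which held for 0.322% of tested genes in this direction, and its log2 ratio was -1.54 ± 0.14 (adjusted p = 0.00152). The glucosylceramidase gene gba-2 had 0 CPF channels and 6 control channels above background. It passed the filter through its control channels alone, which by itself favours a lower call, so that call (adjusted p = 0.00143) is no independent support. With the reported processing its level was at least 6.08-fold lower in CPF. This bound took in each array the higher of its own CPF level and the lowest CPF level of a probe above background. The fitted log2 ratio of gba-2 was -4.50 with plain background subtraction and -1.82 with the deposited table. The bound therefore holds for the reported processing alone. The sphingomyelinase gene asm-2 had -1.02 ± 0.19 (adjusted p = 0.0336, 4 of 6 CPF channels above background) and asah-2, another ceramidase gene, -0.64 ± 0.12 (adjusted p = 0.0336). The fifth was cln-3.3, a relative of the human CLN3 gene, at -0.52 ± 0.10 (adjusted p = 0.0328).

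Without CPF in Cy5 replicate 1, 2 or 3 or without CPF in Cy3 replicate 2 the count of lysosomal genes called lower was 2 of 24, asah-1 and gba-2, and without either of the others it was 5. The former fits called 0.526% to 0.852% of all tested probes and the latter 7.31% and 12%, against 3.50% with all arrays. In each of these fits gba-2 was tested through its control channels alone. Tested relatives of the called genes on the same list were not called. They were asm-1 (-0.20), asm-3 (0.52), gba-1 (-0.47), gba-4 (0.23), cln-3.1 (-0.06) and cln-3.2 (-0.28). Of these, gba-1 was below 0 on 6 of 6 arrays (adjusted p = 0.0647). The genes of the lysosome membrane proteins LMP-1 and LMP-2, relatives of mammalian LAMP, were not called (lmp-1 -0.38, adjusted p = 0.174, and lmp-2 -0.35, adjusted p = 0.132).

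Of the 28 listed lipases outside the lysosome and lipid droplet proteins 18 were tested, with 2 called lower and 1 higher, against 2.34% and 0.965% of all tested genes, and a list median of -0.07. atgl-1, the lipase that starts fat breakdown on the droplet surface, had -0.79 ± 0.14 (adjusted p = 0.0310), with all 12 channels above background and ratios between -1.37 and -0.40. fil-1, a lipase gene induced by fasting, had -0.81 ± 0.16 (adjusted p = 0.0364), with 2 CPF and 4 control channels above background. These are the fewest channels that pass the filter, and most are control channels, which by itself favours a lower call. The limma fit gave fil-1 an adjusted p of 0.0557 without the filter and 0.164 with the deposited table. lips-6, of the lips family of lipase-like genes, was higher in CPF at 1.07 ± 0.21 (adjusted p = 0.0353), with ratios between 0.30 and 1.63. These calls did not hold throughout: atgl-1 was called in 2 of 6 fits with an array left out, and fil-1 and lips-6 in 3 of 6. Each was lost without CPF in Cy5 replicate 1 or 2, atgl-1 and fil-1 also without CPF in Cy5 replicate 3, and atgl-1 and lips-6 also without CPF in Cy3 replicate 2. The adjusted p reached 0.176 in these fits.

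Of 11 fasting-responsive genes of fatty acid metabolism 8 were tested and 0 were called, against 3.31% of all tested genes, with a list median of -0.20. acdh-2, an acyl-CoA dehydrogenase gene, had 0.76 ± 0.18 (adjusted p = 0.0568) and acs-11, an acyl-CoA synthetase gene, -0.53 ± 0.15 (adjusted p = 0.0874). Without CPF in Cy3 replicate 1 acdh-2 was called higher (adjusted p = 0.0257) and acs-11 lower (adjusted p = 0.0142), in a fit that called 7.31% of all tested probes. The fit that left out CPF in Cy3 replicate 3 called 1 gene of the list higher, acdh-2, and 0 lower, with 12% of all tested probes called.

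**Figure D4:**
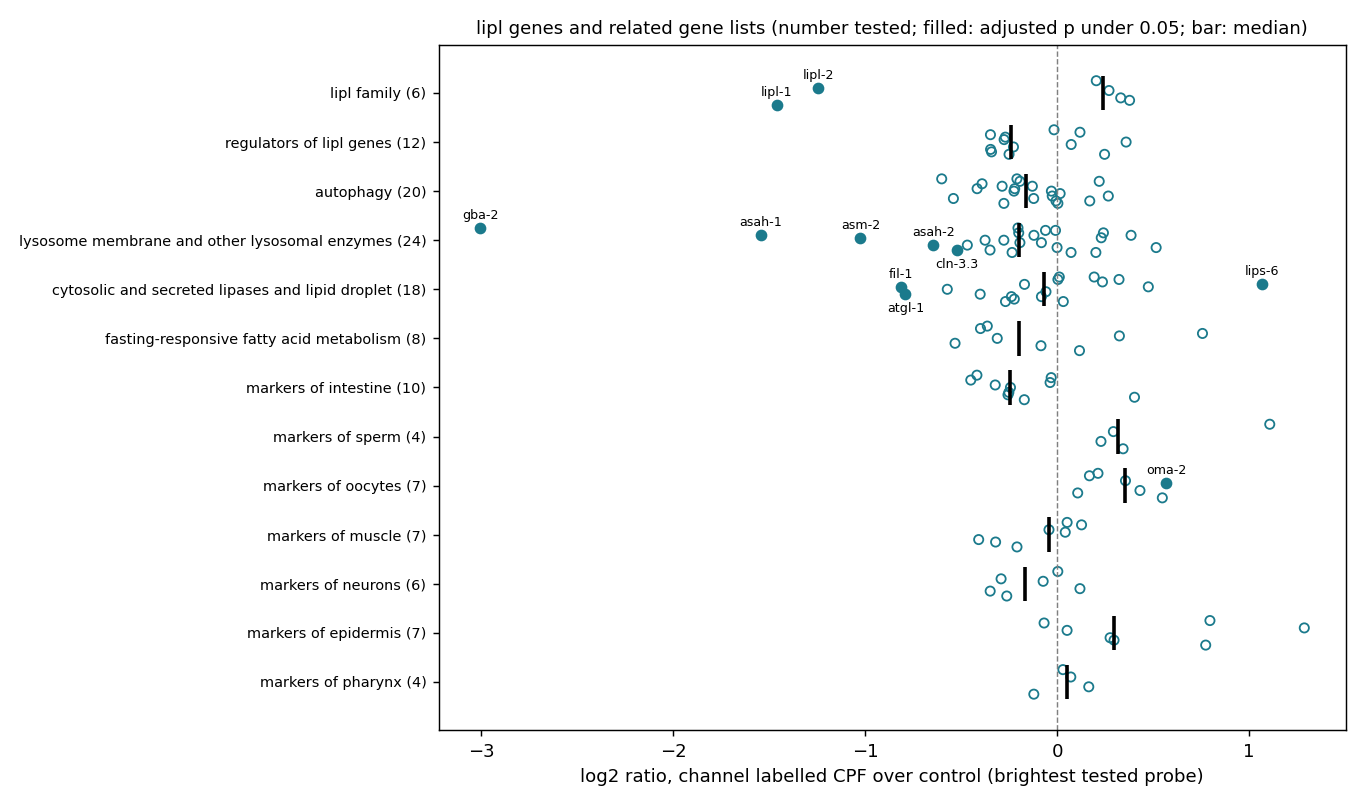
Fitted log2 ratio of CPF over control (horizontal axis) of the brightest tested probe of each gene in the lipl family, in related gene lists and in lists of cell type markers, with the number tested in brackets, a bar at the list median and filled points where the adjusted p was under 0.05. In the lipl family lipl-1 at -1.46 and lipl-2 at -1.24 stand apart from the other 4 points at 0.20 to 0.38, and the point of gba-2 rests on CPF channels that were not above background.

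In whole animals, fewer cells of a type and less RNA per cell cannot be told apart. Of 10 markers of the intestine, the tissue in which lipl genes act, all were tested, 0 were called, against 3.31% of all tested genes, and 9 had a fitted ratio below 0, against 4884 of 9947 genes, with a median of -0.25. Their summed log2 level was 15.3 to 15.9 in CPF channels and 15.6 to 16.0 in control channels, lower in CPF on 5 of 6 arrays. This was not particular to the intestine, since the sum was lower on 6 arrays for neuron markers and on 5 for muscle markers. For sperm, epidermis and pharynx markers it was lower on 1 array each, and for oocyte markers on 0. The gut esterase gene ges-1 had -0.42 ± 0.11 (adjusted p = 0.0702) and vha-6, a proton pump subunit gene of the intestine, -0.45 ± 0.13 (adjusted p = 0.0876). The part of such a shift in the ratios of lipl-1 and lipl-2 was not tested.

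Markers of other cell types were compared in the same way. Of 7 tested oocyte markers, all had a ratio above 0, against 5063 of 9947 genes, and oma-2, a gene of oocyte maturation, was called higher (0.57 ± 0.12, adjusted p = 0.0467, lost without CPF in Cy5 replicate 1, 2 or 3 or CPF in Cy3 replicate 2, at up to 0.198). Their summed log2 level was 11.3 to 13.2 in CPF channels and 11.1 to 12.9 in control channels. No tested marker of sperm (4), muscle (7), neurons (6), epidermis (7) or pharynx (4) was called, against 3.31% of all tested genes. With an array left out some were. Without CPF in Cy3 replicate 3, 3 epidermis markers and 1 sperm marker were called higher and 1 muscle marker lower. That fit called 1323 of 11033 probes (12%), 967 of them higher. Without CPF in Cy3 replicate 1, which called 806 probes (7.31%), 1 sperm marker was called higher. The count of oocyte markers called higher was 2 in each of these fits. Their list medians were 0.32, -0.04, -0.17, 0.30 and 0.05, and the part of these shifts in the lipl ratios was not tested either.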

How the data were processed

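RNA of whole nematodes was measured on 6 dual-channel arrays of printed 60-mer probes. The authors scanned the arrays with ScanArray Express per the file headers, and deposited the raw intensity and percent saturation of each spot. Their deposited log2 ratios came from limma 3.2.3 (loess, Aquantile) and served only as an alternative.

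Probes were named by sequence name (21382) or gene number (31) through WBcel235 annotation, and 1077 kept the file's name. The 742 control and blank spots were dropped. Intensities were corrected by normexp (offset 50) and normalised by loess and Aquantile. The ratio was fitted in limma 3.58.1 (R 4.3.3) on a term for CPF and one for dye, because the channels of a spot are not independent. The test was moderated and 2-sided, and p was adjusted by Benjamini-Hochberg. A linear model of single channels like the study's, without its removal of outlying values, was an alternative. The brightest tested probe stood for a gene. The procedure was also run on simulated data with independent errors of equal spread on all arrays, which the arrays here do not have.

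The members and lists were chosen with earlier results of these data known. All lipl genes were named and, from each list, up to 4 called genes with the largest ratios, or else the 2 with the smallest p. Genes of the sperm, muscle, neuron, epidermis and pharynx lists were left unnamed. The genes hlh-30, lmp-1, lmp-2, cln-3.1, cln-3.2, cln-3.3, asm-1, asm-3, gba-1 and gba-4 were added after their values were seen. Alternatives covered background, normalisation, filter, dye term, replicate block, weights and left-out arrays.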

Additional observations from a re-analysis of the deposited data

Results flagged for a closer look

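mxl-3, the repressor of lipl genes, had ratios below 0 on all CPF in Cy5 arrays and above 0 on all CPF in Cy3 arrays, so that its mean differed by -1.01 between CPF in Cy5 and CPF in Cy3. The dye term of the limma fit, which tests this difference, did not pass (adjusted p = 0.476). mml-1 had a ratio of -0.85 on CPF in Cy3 replicate 1, far from the other 5 arrays, which lay between -0.34 and -0.15. About 1 in 20 such groups stands out in this way by chance.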

How the results depend on the processing

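The log2 ratios of lipl-1 and lipl-2 were below 0 in all 23 alternatives fitted to each. Among these, the deposited table was first matched to the scanner files in column and sign, so its sign is no separate evidence. lipl-1 stayed past the threshold in 21, the exceptions being the single-channel linear model (adjusted p = 0.999951) and the CPF in Cy3 arrays alone. lipl-2 stayed past it in 12. The count of lipl genes called lower was 1 with plain background subtraction, median centring within arrays, no filter, the dye term left out, the replicate block or the CPF in Cy5 arrays alone. It was 0 with the single-channel model, with the CPF in Cy3 arrays alone and with the filter at all 12 channels, which left 1 lipl gene to test. It was 1 to 2 without each array in turn. The count called higher was 3 with array weights, a fit that called 5005 probes and whose weights did not converge fully, and 0 in the other 24.

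Tested probes called were 386 as reported (61.9% of them lower), 243 without background correction (74.1% lower), 233 with plain subtraction (75.5%), 54 with median centring (92.6%), 1281 with scaling between arrays (40.7%), 256 with the filter at all 12 channels, 205 without the dye term, 165 with the replicate block, 8 with the single-channel model, 1626 with robust regression, 700 with the deposited table (49.3%), 629 with the CPF in Cy5 arrays alone and 20 with the CPF in Cy3 arrays alone. Without each array in turn they were 58 to 1323. Median centring moved the median of all tested probes to 0.12, and lipl-1 and lipl-2 stood at -1.34 and -1.13 in it. At an unadjusted p under 0.01, the kind of threshold the methods use, the single-channel linear model passed 89 probes, and lipl-1 and lipl-2 were not among them. The cause of these differences was not tested.

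Same-numbered arrays of both orientations had deviations that correlated at 0.103, -0.0788 and 0.271 across probes. Arrays of different numbers were not compared, so these values cannot decide whether the numbers pair the arrays. The reported fit did not pair them. With the replicate block lipl-2 had adjusted p = 0.0555 at the same ratio, and the calls of asah-2 (0.0640), cln-3.3 (0.0758), atgl-1 (0.0596), fil-1 (0.0629) and oma-2 (0.0676) were lost, leaving 3 of 24 lysosomal genes and 0 of 18 other lipase and droplet genes called lower. Among related genes, mxl-3 turned to -0.14 (adjusted p = 0.616) when only the CPF in Cy5 arrays were fitted. Signal over background limits lipl-6, lipl-7 and the second lipl-1 probe.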
